A study of Caenorhabditis elegans with 2 samples.

Results

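The genes described here are the nuclear receptor genes of Caenorhabditis elegans chromosome V, examined for peaks in a chromatin immunoprecipitation and sequencing (ChIP-seq) experiment on one of them, NHR-102. They were taken from the Ensembl WBcel235 annotation as all protein-coding genes on V whose name starts with nhr-. A set of 7 well-studied receptor names was left out, and 3 of those names, nhr-13, nhr-68 and nhr-114, belong to V. This gave 164 genes of 19985 protein-coding genes in the annotation, beside 4830 other protein-coding genes on V and the nuclear receptor genes of the other chromosomes. The animals were hermaphrodites of strain OP463, genotype unc-119(tm4063) III; wgIs463, in which an integrated transgene makes NHR-102 with GFP and FLAG at its C-terminal end. They were taken as whole L4 larvae, 50 h after synchronization by L1 starvation, and the precipitation used an antibody to GFP. The only group comprised 2 biological replicates. An untagged strain was not analysed here, chromatin of all tissues was mixed, and whether the tagged protein is made at the level and in the cells of the native one is not given in the sources used here. Peaks therefore mark places where chromatin was recovered with the GFP antibody, and they cannot be assigned to a tissue or told apart from signal that does not need the receptor.

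Nuclear receptors are transcription factors that hold a zinc finger domain for binding DNA and, in most cases, a domain that binds a small lipophilic ligand. Nematodes have far more of them than insects or vertebrates. Most of the worm genes descend from an ancestor related to vertebrate HNF4, and many stand in groups of neighbours on the arms of chromosome V. A ligand is known for very few, and for most of the genes below no role is firmly established. The name was checked against the protein sequence encoded by each gene. The spacing of cysteines of the first zinc finger (C-x2-C-x13-C-x2-C) was present in 138 of the 164 genes (84.1%), against 69.6% of receptor genes off V (71 with it and 31 without) and 312 of all 19985 genes (1.56%). Among the 20 genes with a promoter peak in the thresholded list, described below, 16 had it (80%).

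Peaks were taken from 4 deposited lists in build ce11, which is the same assembly as WBcel235. The list of peaks that passed a threshold on the irreproducible discovery rate (IDR), called the IDR list, was derived from both replicates and held 2796 peaks. The list of both replicates pooled and those of replicate 1 and replicate 2 held 30000 each. The 2796 IDR peaks were exactly the 2796 strongest peaks of the pooled list, so that an IDR peak here is one with a pooled signal of at least 90.5. Signals are the authors' values for each peak, in units whose scaling is not given in the sources used here, and they are compared only within a list. Read numbers are not part of these lists, and the depth is therefore unknown. A gene counted when the summit of a peak, its highest point, lay in the promoter window, which reached 1000 bp up and 200 bp down from any annotated 5' end of the gene. With a single group there was no contrast between conditions and no test was made.

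Of the 164 receptor genes on V, 20 had an IDR summit in the promoter window (12.2%, exact 95% interval 7.61 to 18.2%). Among all protein-coding genes the share was 8.95% (1789 of 19985), which lies inside that interval. The other protein-coding genes of V had 335 of 4830 (6.94%, interval 6.24 to 7.69%) and of the receptor genes off V 13.7% had one (14 with and 88 without, interval 7.71 to 22.0%). With the same 7 names left out, the receptor genes off V had 12 of 98 (12.2%). Intervals cover counting error only, and neighbouring genes are not independent. In the longer pooled list 56 receptor genes on V had a promoter summit (34.1%), close to the 34.3% of all genes. Replicate 1 gave 60 (36.6%), with 36.4% of all genes, and replicate 2 gave 56 (34.1%), with 35.7% of all genes. The share of receptor genes on V was thus near that of the whole genome in the pooled and replicate lists. In the IDR list it was higher, with the share of the whole genome inside its interval. The leftmost cluster described below was also left out, after seeing the data. Then 13 of 145 had an IDR summit (8.97%), close to the 8.95% of all genes. In each list the share of all 164 was higher than that of the other genes of their chromosome, of which 23.5% had a pooled summit. For the IDR list the intervals of these groups on V just overlapped.

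The strongest summits stood at nhr-178, nhr-47, nhr-142, nhr-135, nhr-58 and nhr-210. Their sequences are shown because these 6 genes carry the highest signals and because they differ in composition and position. Each is given on the strand of its receptor gene, 5' to 3', from up to 60 bases before the summit to up to 60 after it, ending before the annotated 5' end of the gene, from the WBcel235 assembly. Capitals mark matches on either strand to the searched motifs, which are described further below. The stretches are chrV:1607978-1608098 (minus strand), chrV:5505175-5505252 (plus), chrV:5790993-5791113 (minus), chrV:7093983-7094103 (minus), chrV:532164-532258 (plus) and chrV:519595-519715 (minus), and the summit is base 61 of each.
nhr-178: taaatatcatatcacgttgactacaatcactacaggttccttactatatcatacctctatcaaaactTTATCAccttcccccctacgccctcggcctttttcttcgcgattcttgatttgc
nhr-47: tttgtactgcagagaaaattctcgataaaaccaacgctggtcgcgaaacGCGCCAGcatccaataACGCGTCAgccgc
nhr-142: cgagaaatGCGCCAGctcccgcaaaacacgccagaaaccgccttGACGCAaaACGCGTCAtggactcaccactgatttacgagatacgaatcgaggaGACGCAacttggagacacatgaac
nhr-135: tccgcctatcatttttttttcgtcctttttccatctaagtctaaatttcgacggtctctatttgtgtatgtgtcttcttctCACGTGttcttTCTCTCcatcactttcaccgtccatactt
nhr-58: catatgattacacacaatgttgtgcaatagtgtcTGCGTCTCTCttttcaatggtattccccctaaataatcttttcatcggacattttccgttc
nhr-210: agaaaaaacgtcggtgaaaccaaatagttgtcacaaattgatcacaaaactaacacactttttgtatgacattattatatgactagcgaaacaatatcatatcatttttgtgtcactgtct

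The highest signal of the family on V was at nhr-178, a receptor gene of the left arm. Its IDR peak (V, 1607798 to 1608231) had a signal of 603 and rank 94 of 2796, with a signal of 342 in replicate 1 (rank 81) and 267 in replicate 2 (rank 112). The summit was intergenic, 85 bp upstream of the 5' end, written as -85 bp, and no other promoter window held it. Both replicates thus placed it among their strongest sites, each by its own list. Its neighbour nhr-177 had a weaker summit of its own, at +38 bp in the annotated 5' UTR, with a signal of 123, and 54.98 in replicate 1 (rank 2545) and 73.8 in replicate 2 (rank 1417).

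Next came nhr-47 and nhr-142, successive receptor genes on V that lie far apart. The nhr-47 peak (V, 5505100 to 5505435) had a signal of 482 and rank 139, with 239 in replicate 1 (rank 155) and 240.4 in replicate 2 (rank 135). Its summit, at -18 bp, fell in the same position in both replicates, within the noncoding RNA gene C24G6.10 and inside the window of dnj-19, a DnaJ co-chaperone gene whose 5' end it missed by more (-378 bp). The nhr-142 peak (V, 5790906 to 5791233) had a signal of 367 and rank 232, with 194 in replicate 1 (rank 225) and 178 in replicate 2 (rank 245). Its summit lay at -500 bp from nhr-142 and at -177 bp from F44E7.9, which was the nearer gene. Neither summit therefore belonged to a receptor promoter alone. A further and weaker IDR peak (V, 5788595 to 5789038) had its summit in an intron of nhr-142, at +613 bp, with a signal of 99.4, and this was the only IDR summit inside the body of a receptor gene on V and outside every promoter window of that gene (0.610% of the 164, against 2.78% of all genes).

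In the centre of the chromosome the highest signal was at nhr-135. The peak (V, 7093820 to 7094122; summit at -273 bp) had a signal of 337 and rank 268. Its ranks were 192 in replicate 1 (signal 213) and 524 in replicate 2 (signal 127), the widest ratio of ranks among the 20. It ranked above nhr-142 in replicate 1 and below it in replicate 2. The gene stands outside the clusters described below. On the left arm, also outside any cluster, nhr-57 had a summit at -144 bp with a signal of 180.5 and rank 965, with 89.97 in replicate 1 (rank 1096) and 91.9 in replicate 2 (rank 975). This gene is known as a target of the hypoxia factor HIF-1 in C. elegans.

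**Figure D1:**
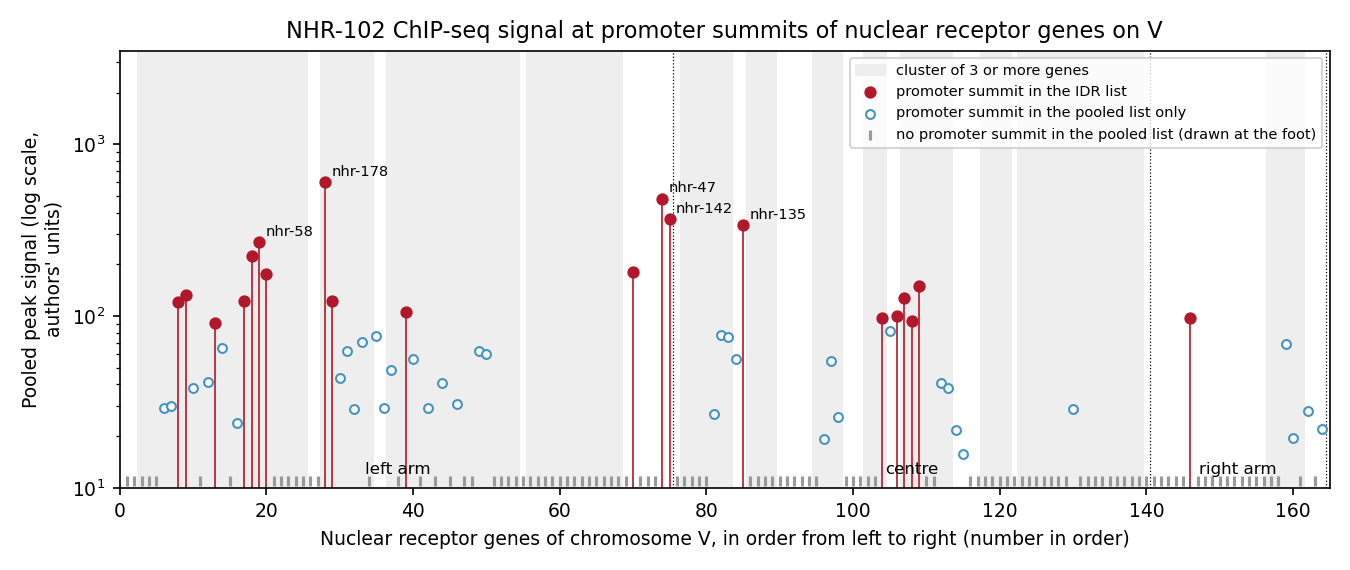
Signal of the strongest promoter summit of each of the 164 receptor genes, in their order along V, on a log scale (authors' units); filled points are IDR summits, open circles are summits of the pooled list alone and ticks at the foot are genes with neither. Grey bands are clusters and dotted lines the limits of the arms; the filled points run from 91.3 at nhr-130 to 603 at nhr-178, and 13 of the 20 lie in the left arm.

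The summits fell mostly in the left arm and the centre of V. In the left arm, taken as the part below 6 Mb, 13 of 75 receptor genes had a promoter summit (17.3%, interval 9.57 to 27.8%), against 84 of 1296 other genes (6.48%, interval 5.20 to 7.96%). In the centre the counts were 6 of 65 (9.23%, interval 3.46 to 19.0%), against 218 of 2504 (8.71%). In the right arm, above 16 Mb, they were 1 of 24 (4.17%, interval 0.105 to 21.1%), against 33 of 1030 (3.20%). The interval for the left arm was the one that did not meet that of its neighbours. The pooled list gave the same order, with 42.7% of receptor genes against 19.8% of other genes in the left arm, 29.2% against 27.8% in the centre and 20.8% against 17.9% in the right arm. Of the 13 genes in the left arm, 7 came from the leftmost cluster, and without it, an omission chosen after seeing the data, the left arm had 6 of 56 (10.7%, interval 4.03 to 21.9%), a range that includes the share of the other genes. The shares also moved with the limits. With V cut into 3 equal parts the receptor genes had 13 of 76 on the left (17.1%), 6 of 40 in the middle (15%, interval 5.71 to 29.8%) and 1 of 48 on the right (2.08%, interval 0.0527 to 11.1%), against 6.77%, 9.33% and 4.45% of the other genes. The middle share was then close to the left one, and the right share lay below that of the other genes, within its interval.

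**Figure D2:**
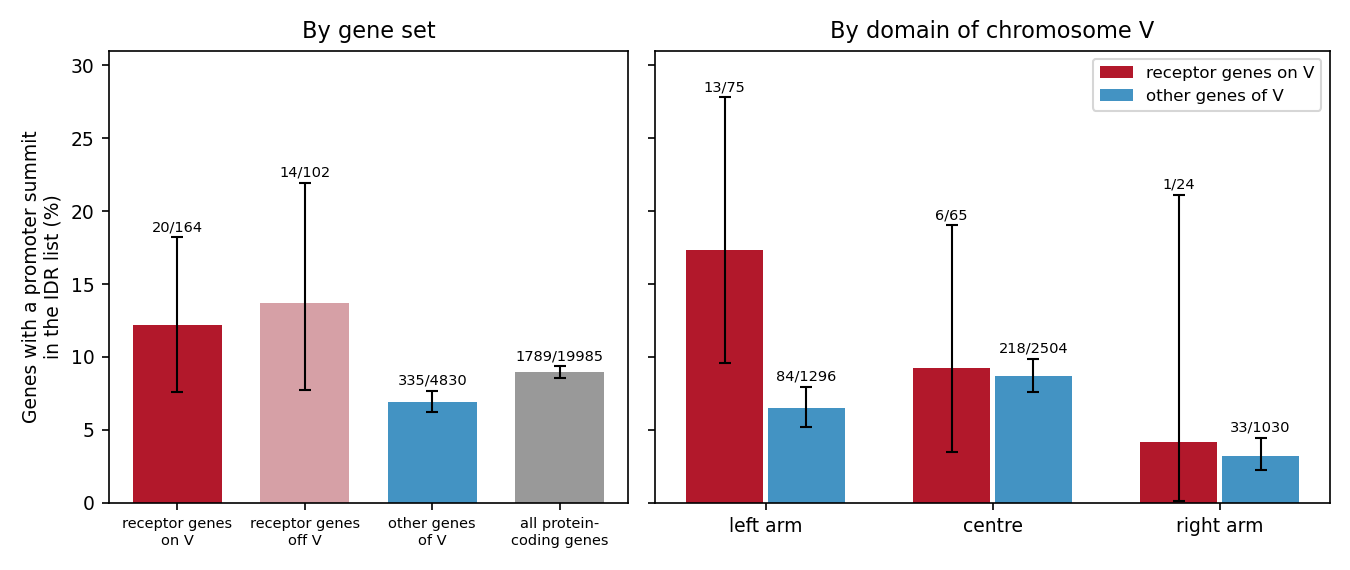
Share of genes with an IDR summit in the promoter window (percent), with exact 95% intervals for counting error and the counts written above. The left panel sets the 164 receptor genes on V beside receptor genes off V, other genes of V and all protein-coding genes; the right panel splits V into left arm, centre and right arm, where the receptor genes stood at 17.3, 9.23 and 4.17% and the other genes at 6.48, 8.71 and 3.20%.

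Clusters were defined as 3 or more of the receptor genes with at most 50 kb between one and the next. There were 16, holding 112 of the 164 genes, and in 5 of them a receptor gene had an IDR promoter summit. Inside clusters 14 of 112 receptor genes had one (12.5%, interval 7.01 to 20.1%), against 6 of 52 outside (11.5%, interval 4.35 to 23.4%). The other protein-coding genes standing between the receptor genes of these clusters had 5 of 130 (3.85%, interval 1.26 to 8.75%). The share was thus similar for receptor genes inside and outside clusters. The genes around them in the same stretches had a lower one, with an interval that overlapped theirs. That contrast drew much on the leftmost cluster, where 7 of 19 receptor genes and 0 of 29 others had a summit. It went the other way in the clusters nhr-133 to nhr-226 (1 of 18 against 3 of 13) and nhr-231 to nhr-243 (0 of 5 against 2 of 11).

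The leftmost cluster, nhr-254 to nhr-155 (V, 392628 to 541485), held 7 of the 20. It has 19 receptor genes and 29 others, among them many srh, str and srw chemoreceptor genes, and none of the 29 had an IDR promoter summit. Of the 19, 13 had a summit in the pooled list. The strongest, at nhr-58, nhr-210 and nhr-132, were toward the right end. There 4 receptor genes in a row, nhr-131, nhr-210, nhr-58 and nhr-132, each had a summit of their own. At nhr-58 the signal was 270.3 (rank 438), with 152 in replicate 1 and 117 in replicate 2, at -35 bp. At nhr-210 it was 224 (rank 638), with 103 in replicate 1 and 119 in replicate 2, at -110 bp. At nhr-132 it was 177 (rank 997), with 94.2 in replicate 1 and 89.5 in replicate 2, at -41 bp. The order of these neighbours is not fixed by the data: replicate 1 placed nhr-58 highest, and replicate 2 had nhr-210 and nhr-58 at ranks 596 and 614. At nhr-131 the summit lay at +198 bp in the 5' UTR, just inside the window, with a signal of 123. It had 70.7 in replicate 1 (rank 1645) and 38.4 in replicate 2 (rank 4313), for the peaks that cover the IDR summit. The replicates differed in where their own summits fell: replicate 2 had one in the window at +71 bp (signal 51.9, rank 2512), whereas the only one of replicate 1 in the window stood at -950 bp (12.2, rank 25584).

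Farther left in the same cluster, nhr-203 and nhr-202 formed another pair of neighbours with similar values. The nhr-203 signal was 121, with 68.13 in replicate 1 and 59.98 in replicate 2, and its summit stood at -147 bp. The nhr-202 signal was 132, with 69.3 in replicate 1 and 64.9 in replicate 2, and its summit stood at -168 bp. The last gene of the 7, nhr-130, had the lowest IDR signal of all 20, 91.3, at -263 bp, with 54.9 in replicate 1 (rank 2549) and 39.2 in replicate 2 (rank 4169). Summits of the pooled list alone were found elsewhere in the cluster at nhr-212 (64.7) and at 5 further receptor genes, the lowest at nhr-106 (23.9), and at 3 other genes, irg-8 and Y39D8A.1 with 54.7 each and C14C6.5 with 45.3. The first gene, nhr-254, and the last, nhr-155, had none in either list.

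**Figure D3:**
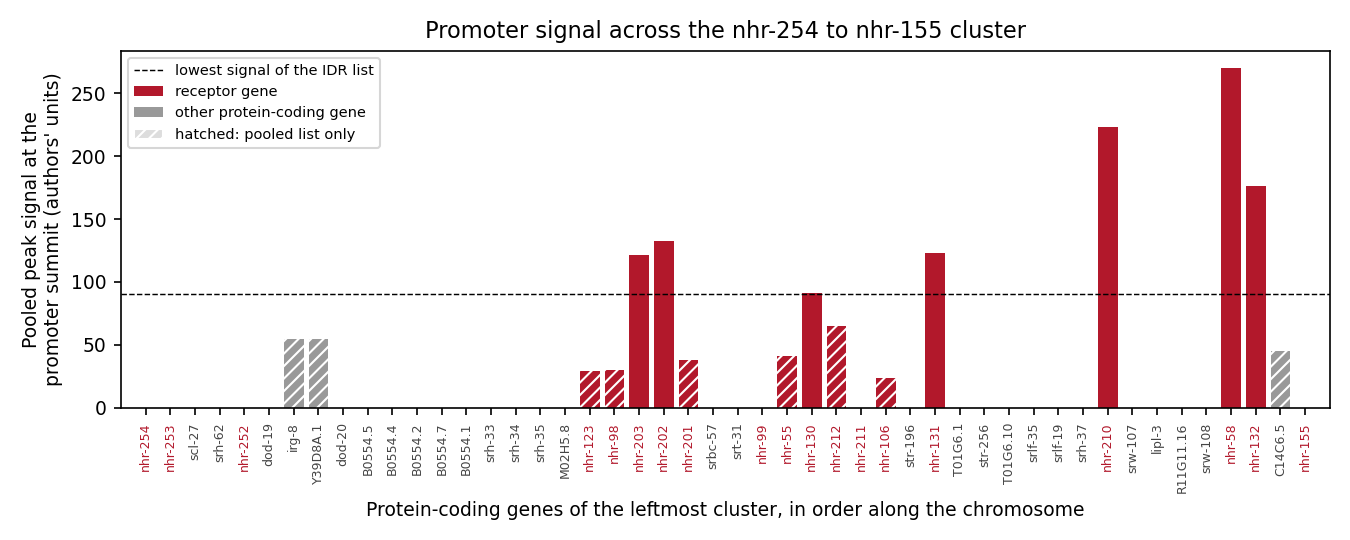
Pooled signal (authors' units) of the strongest promoter summit of each protein-coding gene of the leftmost cluster, in order along V, with receptor genes in red and other genes in grey. Solid bars are IDR summits and hatched bars summits of the pooled list alone, the dashed line is the lowest signal of the IDR list, 90.5, and no grey bar reaches it.

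A shorter run lay in the centre of V, in the cluster nhr-206 to nhr-136 (V, 12092006 to 12109313), where the first 3 of 7 receptor genes, nhr-206, nhr-208 and nhr-207, had a summit each, and 5 of the 7 had one in the pooled list. The genes follow each other on the plus strand with no other protein-coding gene in the cluster. Their summit sequences are printed because they are successive genes with a summit each. Aligned identity over 121 bases was 55.6% for nhr-206 and nhr-207, 47.3% for nhr-206 and nhr-208 and 42.2% for nhr-208 and nhr-207. They are chrV:12091872-12091981, chrV:12094016-12094136 and chrV:12095994-12096114, all on the plus strand, with the summit at base 50 of the stretch at nhr-206 and at base 61 of the others.
nhr-206: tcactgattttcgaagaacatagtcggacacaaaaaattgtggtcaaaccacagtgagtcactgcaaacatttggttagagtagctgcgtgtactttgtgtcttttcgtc
nhr-208: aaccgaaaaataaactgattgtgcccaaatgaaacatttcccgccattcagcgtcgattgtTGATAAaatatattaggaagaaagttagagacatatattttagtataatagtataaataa
nhr-207: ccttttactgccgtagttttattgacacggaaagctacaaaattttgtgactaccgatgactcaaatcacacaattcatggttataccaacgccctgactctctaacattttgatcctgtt

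The strongest of these was nhr-207, with a signal of 151 at -92 bp, 76.0 in replicate 1 and 74.4 in replicate 2. At nhr-206 the signal was 128 at -85 bp, with 80.03 in replicate 1 and 49.93 in replicate 2. At nhr-208 it was 94.0 at -241 bp, with 63.8 in replicate 1 and 41.1 in replicate 2. Replicate 2 thus put nhr-207 (rank 1393) well above nhr-206 (rank 2698) and nhr-208 (rank 3794), while in replicate 1 nhr-206 (rank 1321) and nhr-207 (rank 1457) were close.

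The other clusters had few IDR summits. In the cluster nhr-178 to nhr-238 (V, 1603906 to 1629432), nhr-178 and nhr-177 had one, and 6 of the 7 receptor genes had one in the pooled list. In the cluster nhr-133 to nhr-226 (V, 2210510 to 2296977), with 18 receptor genes, nhr-56 had one and 8 had one in the pooled list. The nhr-56 signal was 106 at -24 bp, with 45.8 in replicate 1 (rank 3517) and 62.3 in replicate 2 (rank 1893). Among the 13 other genes of that cluster, 3 had an IDR summit, all of them cytochrome P450 genes: cyp-33C4 with 96.1, and cyp-33C6 and cyp-33C7 with a shared summit of 255. In the cluster nhr-192 to nhr-12, nhr-12 had 96.9 at -268 bp, with 45.5 in replicate 1 and 53.8 in replicate 2, at a summit it shared with R04B5.6.

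The remaining 11 clusters had no receptor gene with an IDR promoter summit. They were nhr-251 to nhr-180, nhr-221 to nhr-222 and nhr-185 to nhr-156 in the left arm; nhr-161 to nhr-42, nhr-263 to nhr-149, nhr-44 to nhr-143, nhr-246 to nhr-269, nhr-51 to nhr-53, nhr-60 to nhr-282 and nhr-102 to nhr-108 in the centre; and nhr-231 to nhr-243 in the right arm. The nhr-185 to nhr-156 cluster, with 10 receptor genes, had no promoter summit in the pooled list either. The nhr-231 to nhr-243 cluster had an IDR summit at 2 of its 11 other genes, and pooled summits at 2 of its 5 receptor genes.

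Outside clusters, beside nhr-57, nhr-47, nhr-142 and nhr-135, summits stood at nhr-101 and nhr-193. The nhr-101 summit, with a signal of 99.6 (53.1 in replicate 1 and 46.9 in replicate 2), lay at -344 bp, in an annotated 5' UTR of pms-2, a mismatch repair gene, and at -229 bp from the nearest 5' end of that gene. The nhr-193 summit, with a signal of 96.7 (52.3 in replicate 1 and 42.4 in replicate 2), lay farthest from its gene, at -610 bp. It was the single one of the 20 in the right arm, and its replicate ranks were 2787 and 3605, one of them within the 2796 strongest.

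No summit of any of the 4 lists lay within 1000 bp of the gene (V, 15874093 to 15876408, minus strand), although it belongs to the cluster nhr-102 to nhr-108. The nearest IDR summit was 110007 bp downstream of its 5' end, with a signal of 366, and the nearest summit of replicate 1 stood at -36977 bp, with a signal of 12.8 and rank 24417. How the transgene and the control used for calling bear on this region was not tested, so the lists do not show whether the tagged protein binds there.

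All 20 summits were covered by a peak in both replicate lists. So were 1500 of all 1526 IDR summits in promoters and 2737 of all 2796 IDR peaks. Of the 20, 13 (65%) were covered by one of the 2796 strongest peaks of each replicate list. The same held for 1040 of all 1526 IDR summits in promoters (68.2%) and for 1875 of all 2796 IDR peaks (67.1%). The other 7 of the 20 were among the strongest of one replicate, against 438 of the 1526. None was outside both, against 48 of the 1526. The ratio between the ranks of a summit in the replicate lists had a median of 1.41 for the 20 and a highest value of 2.73 at nhr-135, against medians of 1.44 for all IDR summits in promoters and 1.47 for all IDR peaks. The summits of the receptor genes were thus about as reproducible as the others by these measures.

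**Figure D4:**
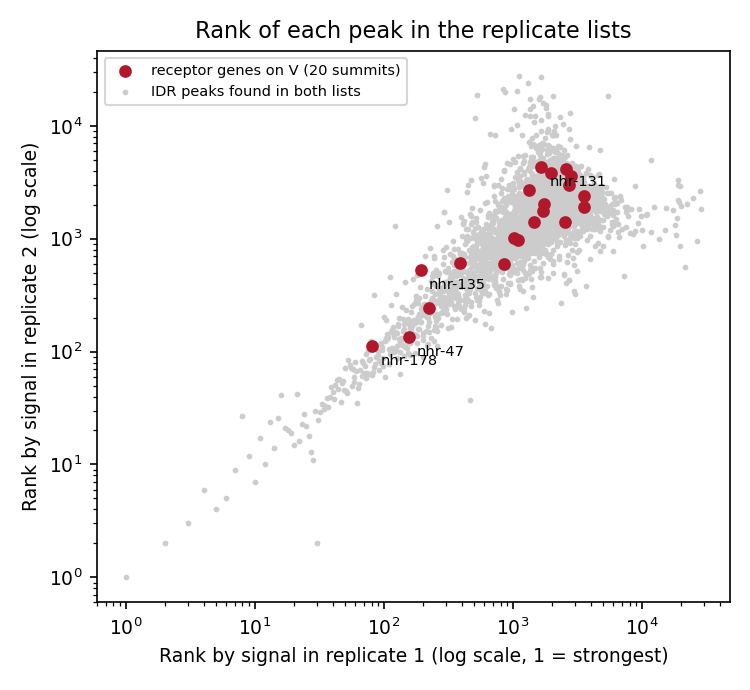
Rank by signal of each IDR peak in the list of replicate 1 (x axis) and of replicate 2 (y axis), both on log scales with 1 as the strongest; red points are the 20 summits of receptor genes on V and grey points all IDR peaks found in both lists. The red points run along the grey ones, from ranks 81 and 112 at nhr-178 to a rank of 4313 in replicate 2 at nhr-131.

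Signals of the 20 ranged from 91.3 to 603 with a median of 130.1, against 151 for the other genes of V with an IDR promoter summit, 125 for receptor genes off V and 150.5 for all genes. Of the 20, 9 (45%) lay above 143, the median of the whole IDR list, against 54.3% of all genes with a promoter summit. By the median, the summits lay closer to the genes than in the other sets, a difference that was not tested. Their median distance was -127 bp, against -207 bp for the other genes of V, -363.5 bp for receptor genes off V and -237 bp for all genes. The last 200 bp before the 5' end held 11 of the 20 (55%), against 134 of 335 for other genes of V (40%), 2 of 14 for receptor genes off V (14.3%) and 35.0% for all genes. A summit in the window of a second gene was found for 4 of the 20 (nhr-47, nhr-142, nhr-12 and nhr-101; 20%), against 46.6% for the other genes of V, none of the 14 off V and 42.3% for all genes.

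**Figure D5:**
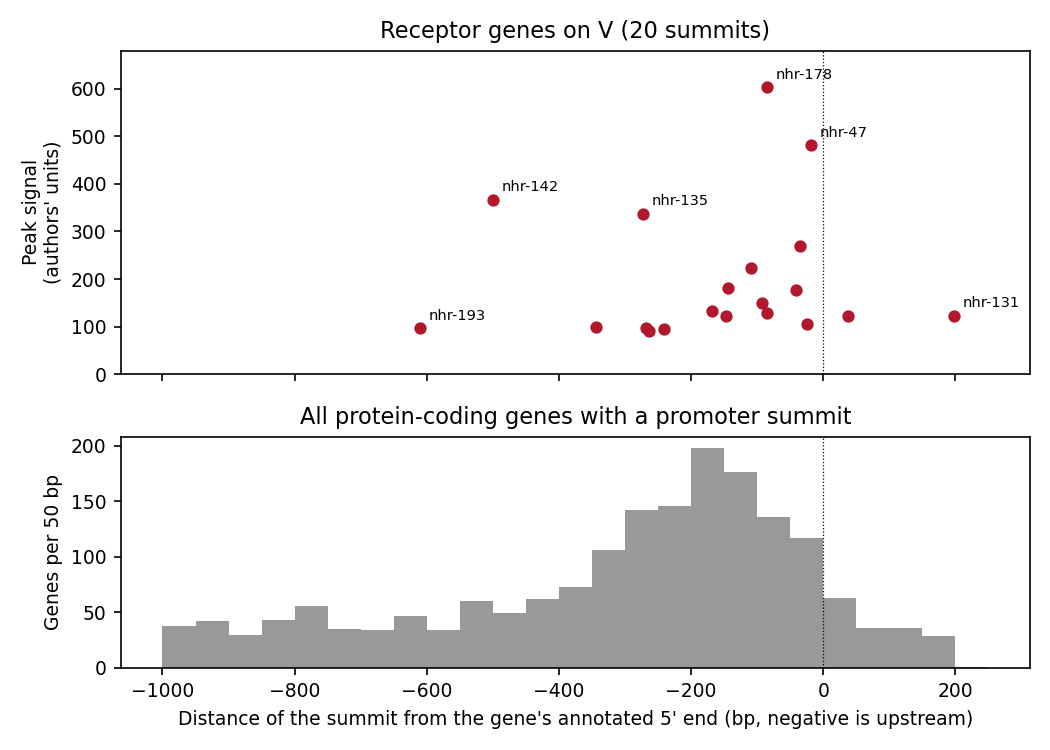
Upper panel, signal (authors' units) of the 20 summits of receptor genes on V against their distance from the annotated 5' end (bp, negative upstream); lower panel, number of all protein-coding genes with an IDR promoter summit per 50 bp of the same axis. The receptor summits run from -610 bp at nhr-193 to +198 bp at nhr-131. Of the 20, 18 (90%) lie upstream of the 5' end, against 90.8% for all genes with a promoter summit.

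Searches for 6 motifs within 50 bp of the summit, on both strands, gave no motif common to the 20. They were AGGTCA, a nuclear receptor half-site; TGATAA and its longer form CTTATCA read on the other strand, bound by GATA factors; CACGTG, an E-box; TGTTTAC, a forkhead site; and GAGAGA, a GA repeat. CTTATCA holds a TGATAA match, so the counts of these overlap. AGGTCA was found at 0 of 20 summits, against 2.95% of all IDR summits in promoters. TGATAA was found at 4 (20%), namely nhr-178, nhr-130, nhr-131 and nhr-208, against 14.4%, and CTTATCA at 2 (10%), against 6.29%. GAGAGA was found at 5 (25%), against 19.1%, CACGTG at 1 (nhr-135), against 6.03%, and TGTTTAC at 0, against 1.64%. At 9 of the 20 (45%) there was a match to any of the 6, against 38.2% of all IDR summits in promoters.

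In the promoters of all 164 genes, from 250 bases before to 50 after the 5' end, AGGTCA was found in 9.76%, against 8.23% of the promoters of all genes. GAGAGA was found in 28.0%, against 21.8%, and TGATAA in 27.4%, against 30.2%. CTTATCA stood at 7.93%, against 9.20%, CACGTG at 2.44%, against 5.82%, and TGTTTAC at 1.22%, against 4.77%. No match says only that these letters are not in the window.

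A further 3 words were chosen after the printed sequences had been seen, so their counts are a description. The word TGCGTC was found near 4 of the 20 summits (nhr-58, nhr-132, nhr-142 and nhr-12; 20%), against 14.6% of all IDR summits in promoters, and in 15.2% of the promoters of the 164, against 8.78% of all promoters. The word ACGCGTCA was found near 2, those of nhr-47 and nhr-142, against 1.64%, and in 0.610% of promoters of the 164, against 0.350% of all. The word GCGCCAG was found within 50 bp at nhr-47 alone, against 6.82%, and in the nhr-142 stretch it stands slightly farther from the summit. These summits at nhr-47 and nhr-142 are the ones shared with dnj-19 and F44E7.9, and they were also the richest in G and C of the 20, with 55.4% and 54.5% over 101 bp. The median of the 20 was 38.6%, down to 28.7% at nhr-210, against a median of 44.6% for all IDR summits in promoters.

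No summit stretch was a near copy of another. Over the 190 pairs of 121-base windows at the 20 summits, aligned identity had a median of 50% and a highest value of 57.1%. Words of 36 bases from the promoter windows of the 20 genes were nearly all found once in the genome, with a median of 100% and a lowest value of 76.2% at nhr-193. Of the 144 receptor genes without an IDR summit, 18 (12.5%) had under 90% of such words unique, against 14.6% of the other genes of V, and the lowest was 7.29%. How reads that fit several places were treated is not given in the sources used here, and what this means for the peaks called there was not tested. A promoter summit in the pooled list or a replicate list was found for 2 of the 18, nhr-185 and nhr-219. The other 16 had none in any list, against 97 of the 144 (67.4%) and 61.6% of all genes without an IDR promoter summit.

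The 144 genes without an IDR promoter summit were mostly without one anywhere. In no list had 97 (67.4%) a promoter summit, against 61.6% of all genes without an IDR promoter summit. A pooled summit was found for 36 (25%), against 27.8%, and one in both replicate lists for 30 (20.8%), against 21.9%. The median pooled signal of the 36 was 39.3, against 37.7 for all such genes. The 8 highest lay between a pooled signal of 62.4 and 82.1, below the 90.5 at which the IDR list ends. At nhr-232, the first below that limit, the pooled signal was 82.1 (rank 3227), with ranks of 2211 in replicate 1 and 18531 in replicate 2. At nhr-107 it was 77.1, with ranks of 15211 and 1650 in the same order, and at nhr-256 it was 76.8, with ranks of 550 and 7973 for summits that lay at -121 bp and +62 bp. These 3 genes therefore had a strong promoter peak in one replicate and a weak one in the other. The same held for nhr-237 (70.2), with ranks of 2299 and 9935. Outside these 8, nhr-79 had rank 1167 in replicate 1 and no promoter summit in replicate 2. For nhr-42 (75.6), nhr-65 (69.0), nhr-212 (64.7) and nhr-117 (62.4), the better replicate ranks lay between 2971 at nhr-42 and 5783 at nhr-65.

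Receptors that are conserved in other animals, and genes of ligand metabolism and of cofactors, were looked at for comparison. Of 13 conserved receptor genes, none of them on V, 3 had an IDR promoter summit (23.1%, interval 5.04 to 53.8%), with 8.95% of all genes inside that interval. They were nhr-8, related to DAF-12 and the vertebrate pregnane X and vitamin D receptors, with 128 at +22 bp, nhr-41, related to the testicular receptors, with 123 at +152 bp, and nhr-48, of the same group as nhr-8, with 93.9 at -628 bp. These values fall in the lower part of the range seen on V. Of 7 genes of steroid ligand metabolism and of cofactors, 2 had one (28.6%, interval 3.67 to 71.0%, which also holds the share of all genes). They were cbp-1, the CBP/p300 acetyltransferase, with 748 at -891 bp (ranks 55 and 71 in replicates 1 and 2), and din-1, a corepressor partner of DAF-12, with 129 at -150 bp. The other genes of that list, daf-9, daf-36, dhs-16, strm-1 and mdt-15, had none.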

How the data were processed

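NHR-102 ChIP-seq of whole L4 hermaphrodites was analysed from peak lists. Per the labels, the assembly is ce11 or ce10; only the ce11 lists were used. The deposited signal of a peak is a value the authors made with their caller, and the deposited -log10 q stood at 2.91 for every IDR peak, so it was not used to filter. Per the notes deposited by the authors, both replicates used the same control file. The sources used here do not name the aligner, the peak caller or the IDR threshold. The antibody label names nhr-102 and the sample description names GFP, which is followed here.

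From the lists, promoter summits were counted per gene with Python 3.11.15, NumPy 2.4.6 and SciPy 1.17.1, with the annotation of Ensembl release 115. Where a gene had several annotated 5' ends the nearest was used, and a summit counted for every gene whose window held it. Annotated 5' ends can lie downstream of transcription starts because of trans-splicing. A replicate's value is that of its peak covering the IDR summit, or, for genes with no IDR summit, of its strongest promoter summit. Shares have exact Clopper-Pearson 95% intervals. Sequences, promoters and proteins were read from the WBcel235 genome with the annotated coding sequences, in place of the RefSeq tables planned for promoters and proteins. The counting steps were checked on simulated data.

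The genes, lists, motifs and comparisons were chosen with earlier results of these data known. The text names every receptor gene on V with an IDR promoter summit, nhr-102, the 8 others of highest pooled signal, the first and last gene of each cluster, genes sharing a summit, and genes of the conserved receptor and ligand lists with a summit. The lowest pooled gene of the leftmost cluster, its other genes with a pooled summit, its chemoreceptor genes, nhr-219, cyp-33C4, cyp-33C6, cyp-33C7 and nhr-79 were named after their values were seen. Alternatives covered the window, the assignment of summits, signal, arm limits, cluster gaps, motif distance and each replicate alone.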

Additional observations from a re-analysis of the deposited data

How the results depend on the processing

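The number of receptor genes on V with a promoter summit, 20, was 18 in windows reaching 500 bp up and 100 bp down (without nhr-131 and nhr-193), 23 in windows reaching 2000 bp up, 18 when summits went to the nearest 5' end alone (without nhr-101 and nhr-142) and 20 with any base of the peak in the window. As shares, the narrow window gave 10.98% of receptor genes on V against 6.695% of all genes. The wide window gave 14.02% against 11.31%. The nearest 5' end alone gave 10.98% against 6.915%, and any base of the peak gave 12.2% against 9.642%. The share on V was the higher one in each of these settings, by a margin that changed with the setting. The stronger 1398 IDR peaks gave 9 receptor genes on V (5.49%), 5 off V (4.90%), 183 other genes of V (3.79%) and 971 of all genes (4.86%). The share on V was thus close to that of all genes in this setting. Leaving out a replicate and taking the 2796 strongest peaks of the other gave 17 to 21 receptor genes on V (10.4 to 12.8%). The other sets had 316 to 341 other genes of V (6.54 to 7.06%), 8 to 12 receptor genes off V (7.84 to 11.8%) and 1679 to 1729 of all genes (8.40 to 8.65%). For receptor genes off V, the share without replicate 2, 7.84%, was below the 8.65% of all genes. Without replicate 1, nhr-101, nhr-130, nhr-193 and nhr-208 were lost and nhr-107 gained; without replicate 2, nhr-12, nhr-131 and nhr-56 were lost and nhr-232, nhr-237, nhr-256 and nhr-79 gained. Off V the narrow window gave 9 (8.82%, against 6.695% of all genes). Within 100 bp of the summit, AGGTCA was found at 2 receptor genes on V and CACGTG at 2. Other IDR summits were not searched at that width, so these counts have no share to stand beside. Without the leftmost cluster, an alternative added after seeing the data, the count was 13 of 145 on V and 6 of 56 in the left arm. The share on V was then 8.97% (interval 4.86 to 14.8%), close to the 8.95% of all genes. The 45 alternatives covered 17 counts, among them genes off V, domains, clusters and motifs, and 35 left their count within 1.5 times. The count of 20 itself moved beyond that with the stronger 1398 peaks (9) and without the leftmost cluster (13). With 3 equal parts of V the counts were unchanged. By other numbers of genes, the share in the centre moved to 15% and that on the right to 2.08%. No paired analysis was possible because there is a single group. The unknown read depth, the lack of an untagged strain and the small number of replicates limit all values, and weak summits such as nhr-130 are near the limit of the IDR list.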
